A study of Caenorhabditis elegans with 2 samples.

Results

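Chromatin regulator genes of Caenorhabditis elegans were examined for binding of GMEB-1 in L2 larvae. The 43 genes were taken from a list of named histone methyltransferases, DREAM and synMuv genes, acetylation enzymes, remodellers and demethylases, and all 43 were found among the 19973 protein-coding genes of the nuclear chromosomes. Their binding played no part in the written rule, although the list was drawn up with earlier results of these data known. A gene was called bound when a GMEB-1 summit lay from 1000 bp upstream to 200 bp downstream of one of its transcript starts. By this rule 25 of the 43 genes, or 58.1%, were bound, beside 16.3% of all protein-coding genes.

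The assay was ChIP-seq, in which DNA bound by a protein is pulled down and sequenced, here for eGFP-tagged GMEB-1 in whole L2 larvae, both sexes mixed, from strain OP343. All animals carried the unc-119(ed3) allele and the wgIs343 insertion, which targets gmeb-1; the labels do not say at what level the tagged protein is made or whether the native gene is intact. The 2 biological replicates form a single group and were called against the same control, so no conditions were compared and no test was made. The replicates' relaxed lists, which keep background regions, held 28693 and 30000 regions. The authors' optimal list by irreproducible discovery rate (IDR) kept 3909 regions. Of their summits, 77.4% lay in a region of replicate 1 and 99.3% in one of replicate 2. A place on that list therefore does not by itself show that a region was found in both replicates. In whole animals, binding in few cells and weak binding in many cannot be told apart.

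GMEB-1 is named for its likeness to mammalian GMEB proteins, which bind a glucocorticoid modulatory DNA element. Chromatin regulators of the kinds studied here place, remove or read marks on histone tails, or move nucleosomes. In the worm, the Polycomb-type MES proteins are known for repression in the germline, above all of the X chromosome. Many synMuv proteins keep germline genes off in the soma, and the DREAM complex, which contains the retinoblastoma protein LIN-35, represses cell cycle genes. Many worm genes lie in operons, in which the genes after the first share its promoter.

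The sequences at 6 of the bound promoters are shown first, because they show what the strongest summit of each class looks like. Each reaches 50 bp to either side of the strongest promoter summit, in build WBcel235 (ce11), read on the strand of the gene. The bases are those of the NCBI RefSeq genome sequence. Capitals mark matches, on either strand, to any of 5 short sequences listed in an earlier account of these data. The shortest is ACGT, which reads the same on both strands. The sequence ACGCGC shares its last 4 bases with another of the set, GAGCGC, so that each holds the same core. The remaining sequences are GACGCA, with no such core, and the repeat GAGAGA.
mes-2, chrII:14383801-14383901, plus strand: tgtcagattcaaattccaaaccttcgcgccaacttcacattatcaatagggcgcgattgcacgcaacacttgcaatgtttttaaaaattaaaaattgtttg
lin-54, chrIV:13240637-13240737, plus strand: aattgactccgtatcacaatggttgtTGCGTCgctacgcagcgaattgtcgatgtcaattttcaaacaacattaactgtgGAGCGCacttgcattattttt
mys-1, chrV:7084897-7084997, minus strand: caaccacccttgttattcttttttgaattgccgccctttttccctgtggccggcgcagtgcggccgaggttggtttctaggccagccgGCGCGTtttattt
isw-1, chrIII:6710162-6710262, minus strand: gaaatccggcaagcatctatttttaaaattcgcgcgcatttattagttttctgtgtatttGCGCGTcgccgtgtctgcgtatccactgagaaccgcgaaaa
rbr-2, chrIV:10919370-10919470, plus strand: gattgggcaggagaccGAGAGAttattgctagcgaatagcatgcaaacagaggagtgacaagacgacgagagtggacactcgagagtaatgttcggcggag
mrg-1, chrIII:12874854-12874954, minus strand: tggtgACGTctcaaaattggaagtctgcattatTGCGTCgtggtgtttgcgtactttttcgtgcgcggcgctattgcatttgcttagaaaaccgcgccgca
The mes-2 window, at the strongest summit of the 25, holds none of the 5 short sequences. The windows of mys-1 and isw-1 each hold ACGCGC, read on the other strand as GCGCGT. The lin-54 and mrg-1 windows hold GACGCA, read as TGCGTC, and the rbr-2 window holds GAGAGA.

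Methyltransferase genes and their COMPASS partners had 9 of 13 members bound, DREAM and synMuv genes 7 of 12, acetylation and deacetylation genes 4 of 8, remodellers 3 of 5 and demethylases 1 of 4. The chromodomain protein gene mrg-1 was bound as well. With so few genes in a class, these shares of 69.2%, 58.3%, 50%, 60% and 25% are descriptions, and differences between classes were not tested. Each of the 25 genes had exactly 1 summit in its promoter, and no summit served 2 members. The signal of these summits, the value that the authors' caller gave each region, ran from 45.2 to 786 with a median of 163.5. Over all 3265 bound genes the median was 90.9, and 16 of the 25 members were above it. A rank of 500 or better among the 3909 regions was held by 11 of the 25 members, or 44.0%, beside 20.5% of all bound genes.

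**Figure D1:**
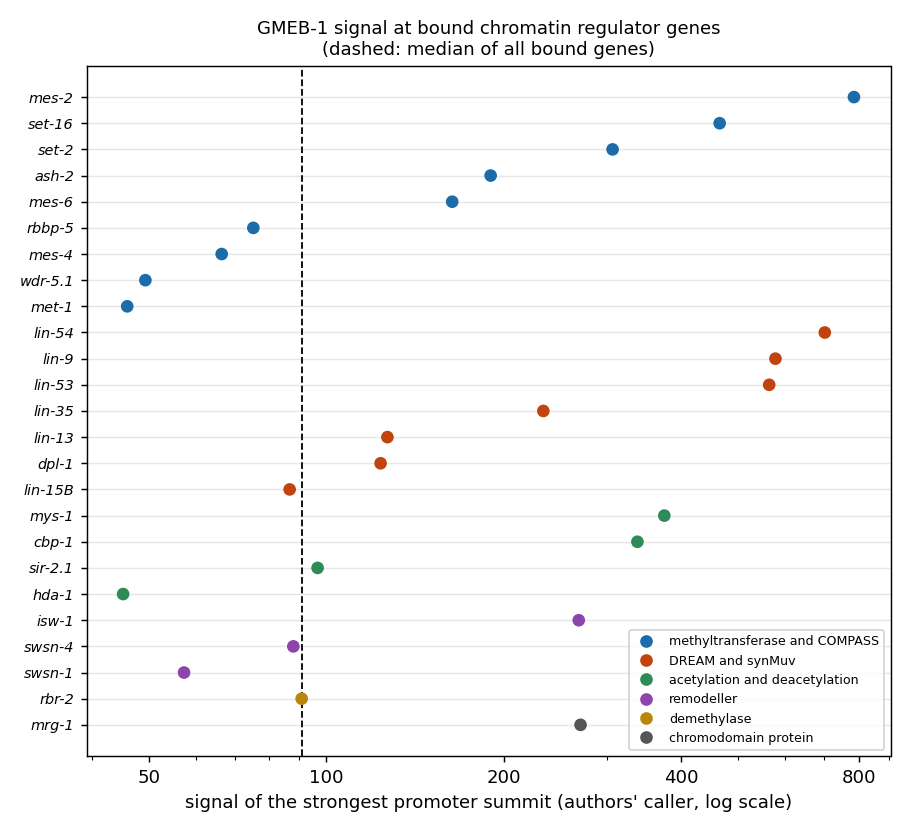
Signal of the strongest promoter summit at each of the 25 bound chromatin regulator genes, on a log axis, coloured by class. The dashed line is the median of all bound genes at 90.9, and mes-2 at 786 and lin-54 at 701 lie farthest above it.

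Of the Polycomb genes, mes-2, which encodes the methyltransferase of the worm complex, had the highest signal of all members. Its summit lay at II 14383851, between genes and 122 bp upstream, with a signal of 786 and rank 48. The region ranked 210 in replicate 1 and 49 in replicate 2, so it was near the top of both lists. mes-6, which encodes the partner related to EED, had its summit at IV 8511254, 30 bp upstream, with a signal of 164 and rank 715. That region ranked 24421 in replicate 1, among the background regions, and 680 in replicate 2. The third subunit gene, mes-3, was not bound, and the nearest summit was 28721 bp downstream of its start.

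The 5 members for COMPASS-type methylation of histone H3, a mark of active promoters, were all bound. The member list does not hold every such gene. Outside it, dpy-30 was bound, and cfp-1 and wdr-5.2 were not. set-16, the MLL-type methyltransferase gene, had its summit at III 13643741, 175 bp upstream, with a signal of 465, rank 119 in replicate 1 and rank 184 in replicate 2. The same summit lay 171 bp from the start of the divergent neighbour drr-2. set-2, the gene of the main COMPASS methyltransferase, had its summit at III 4930481, 277 bp upstream, with a signal of 306. It ranked 317 in replicate 2 and far lower, 10498, in replicate 1. ash-2 had a signal of 190.04 at II 11980317, within an ash-2 intron 109 bp upstream of an internal start, and ranked 2100 and 580 in replicates 1 and 2. The subunit genes rbbp-5 and wdr-5.1 were weaker, with signals of 75.2 and 49.3. In replicate 1 the wdr-5.1 region ranked 22615, and the rbbp-5 summit was nearer to the start of tpp-2, at 76 bp, than to its own, at 157 bp.

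Among the other methyltransferase genes, both that encode enzymes for the histone mark of transcribed gene bodies were bound and weak. mes-4, the germline enzyme, had a signal of 66.5 at V 13437687, 142 bp upstream, and ranked 1839 in replicate 2. No region of replicate 1 contained that summit. met-1 had a signal of 45.9 at I 4254088, 109 bp upstream, and was stronger in replicate 1 (rank 1502) than in replicate 2 (rank 4426). Neither gene for placing the heterochromatin mark was bound. The nearest summit was 16912 bp from met-2 and 3613 bp from set-25. set-1, which encodes a histone H4 methyltransferase, had a summit 1484 bp upstream, outside the promoter window, and that summit lay in the promoter of its divergent neighbour jhdm-1.

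Of the 7 DREAM genes on the member list, 5 were bound. lin-54, which encodes a DNA-binding subunit, had the highest signal of them, 701, at IV 13240687, with rank 56 in replicate 1 and 74 in replicate 2. This summit lay 357 bp upstream of lin-54 but 36 bp from the start of the divergent ribosomal protein gene rpl-12. lin-9, a core subunit, had a signal of 578 at III 8904287, 156 bp upstream, with ranks of 108 and 112, and no other gene's promoter held the summit. The histone-binding protein gene lin-53, which also serves other chromatin complexes, had a signal of 564 at I 9619997, with ranks of 196 and 116. That summit was 237 bp from lin-53 and 230 bp from the divergent gene nra-2. The retinoblastoma gene lin-35 had a signal of 233 at I 5807526, 183 bp upstream, with ranks of 766 and 479. These 4 genes were high in both replicates, all within the 3909 strongest regions of each.

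The remaining DREAM members were weaker or not bound. dpl-1, which encodes the DP-type partner of the EFL-1 factor, had a signal of 124 at II 9169640, 270 bp upstream, in an intron of the overlapping gene T23G7.2. It ranked 889 in replicate 2 and lay in no region of replicate 1. lin-37 and lin-52 were not bound. lin-52 had a summit in its promoter in the list called on both replicates together, at rank 4249, just below the 3909 regions of the IDR list, with promoter ranks of 5285 and 4566 in replicates 1 and 2.

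Genes of the synMuv group that act in heterochromatin had 2 of 5 bound. The zinc finger protein gene lin-13 had a signal of 127 at III 7710258, 767 bp upstream, with ranks of 4992 and 899. lin-15B, the one bound member on X, had a signal of 86.7 at X 15725187, 936 bp upstream, with ranks of 1747 and 1522. Of the heterochromatin protein genes, hpl-2 had a summit 343 bp downstream of its start, in its own coding exon, with a signal of 112, and the nearest summit to hpl-1 was 2441 bp downstream. For lin-61, which encodes an MBT-repeat protein, the nearest summit was 28204 bp away.

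Acetyltransferase genes had 2 of 4 bound and deacetylase genes 2 of 4. mys-1, the TIP60-type enzyme gene, had a signal of 375 at V 7084947, 285 bp upstream, ranking 2152 in replicate 1 and 243 in replicate 2. cbp-1, the CBP/p300-type gene, had a signal of 337 at III 9765614, 895 bp upstream, with the reverse order of ranks, 68 and 321. sir-2.1, a sirtuin gene, had a signal of 96.7 at IV 10366274, 45 bp upstream, and ranked 1107 and 1383. hda-1 had the lowest signal of the 25, 45.2 at V 14524397, 992 bp upstream of its start and near the edge of the promoter window. This summit was 268 bp from the start of the divergent gene ril-1. The regions that held it ranked 4367 and 3740, but neither replicate's own list had a summit in the hda-1 promoter. mys-2, mys-4, hda-2 and hda-3 were not bound, although hda-2 had a summit ranked 1453 in its promoter in replicate 1 and none in replicate 2.

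Among the members, the 3 remodeller genes of the ISWI and SWI/SNF kinds were bound and the 2 of the Mi-2 kind were not. These kinds were formed after the values were seen. SWI/SNF genes outside the member list were mixed. Of these, swsn-3, swsn-6, swsn-7 and pbrm-1 were bound, and swsn-2.2, snfc-5 and let-526 were not. Also outside it, chd-1 and chd-7, which share a gene name stem with chd-3, were bound, with signals of 58.5 and 59.7. isw-1, the ISWI ATPase gene, had a signal of 268 at III 6710212, 112 bp upstream, with ranks of 4142 and 366. swsn-4, the SWI/SNF ATPase gene, had a signal of 87.9 at IV 11125797, 227 bp upstream, with ranks of 2989 and 1355. For the subunit gene swsn-1 the signal was 57.4 at V 20249879, 391 bp upstream, and the ranks were 688 and 3098. The nearest summits to let-418 and chd-3 were 3594 and 8331 bp away.

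Of the demethylase genes, rbr-2, for the mark that COMPASS places, had a signal of 90.8 at IV 10919420, 650 bp upstream within non-coding genes, and ranked 3953 and 1345. utx-1 and jmjd-3.1, for the Polycomb mark, and spr-5, an LSD-type gene, were not bound, with nearest summits 6772, 6384 and 3496 bp away. mrg-1, the relative of mammalian MRG15, had a signal of 270.04 at III 12874904, 248 bp upstream, and ranked 208 and 430. The divergent signal peptidase gene spcs-2 had its start nearer to this summit, at 127 bp.

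The members' regions were then compared between the replicates. All 25 summits lay in a region of replicate 2 and 23 in a region of replicate 1, beside 99.3% and 77.8% of the strongest summits of all bound genes. Within the top 3909 regions of each replicate were 24 in replicate 2 and 16 in replicate 1, or 64.0%, beside 51.9% for all bound genes. Of the 23 members ranked in both replicates, 15 ranked higher in replicate 2, or 65.2%, near the 69.7% of the 2518 bound genes ranked in both. The Spearman correlation of ranks was 0.507 over the 23 members in both lists and 0.505 over 2518 bound genes, which describes regions that share libraries and a control. Both ranks were 500 or better for 7 of the 25 members, and the share over all bound genes was not counted.

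**Figure D2:**
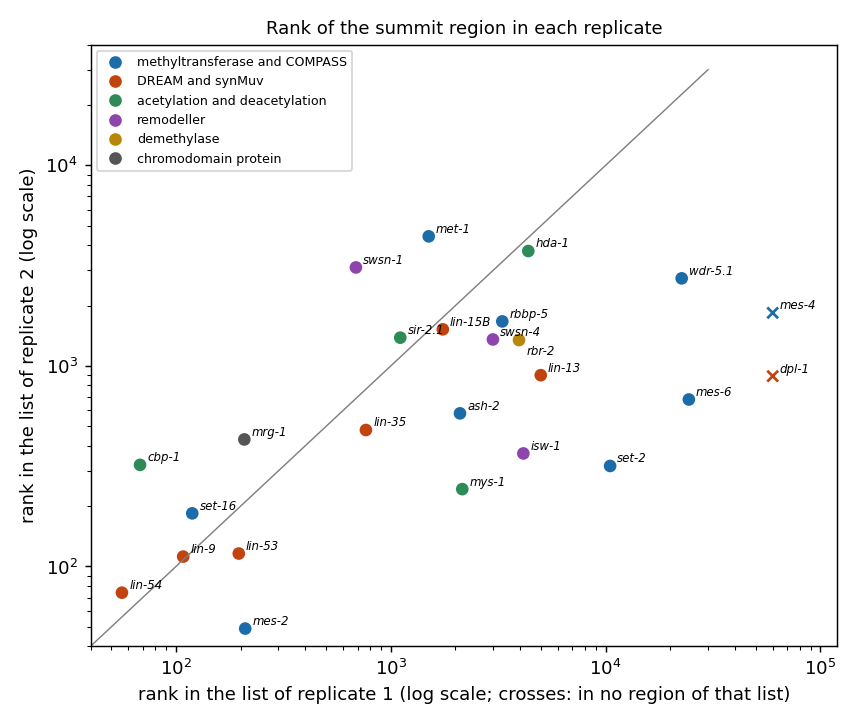
Rank of the region that holds each bound member's summit in replicate 1 (x axis) and replicate 2 (y axis), both on log axes, with the line of equal ranks. Low ranks are strong regions, crosses mark mes-4 and dpl-1, which lay in no region of replicate 1, and set-2, mes-6 and wdr-5.1 lie far to the right of the line.

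When bound genes were called from replicate 1's own top 3909 regions, 17 members were bound, or 39.5%, beside 11.8% of all genes. From replicate 2's own top regions 23 were bound, or 53.5%, beside 16.5%. The summits found in regions of both relaxed lists gave 23 members beside 12.7% of all genes, and the 1954 strongest IDR regions gave 20 beside 10.2%. In replicate 1 alone the methyltransferase and COMPASS class had 5 bound in place of 9, without mes-4, mes-6, set-2 and wdr-5.1. No demethylase gene was bound there, and hda-2 was bound in replicate 1 alone.

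Some of these summits lay between genes that are read in opposite directions. For 10 of the 25 members the summit was also in the promoter of another protein-coding gene, beside 50.5% of all bound genes, and for 6 the other gene had the nearer start. These 6 were set-16, lin-53, lin-54, hda-1, rbbp-5 and mrg-1. When a summit counted only for its nearest start, 19 members, or 44.2%, stayed bound, beside 12.2% of all genes. Among members with a divergent upstream neighbour within 2000 bp, 12 of 13 were bound, while the share over all such genes was 32.6%. Among members with a same-strand neighbour more than 300 bp upstream, 5 of 7 were bound, beside 10.6% of all such genes.

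All 25 summits were upstream of the nearest start of their own gene, beside 95% for all bound genes. For ash-2 that start was an internal one. The median distance was 227 bp, close to the 221 bp of all bound genes. The 9 methyltransferase and COMPASS summits lay from 30 to 277 bp upstream. The summits of hda-1, lin-15B, cbp-1, lin-13 and rbr-2 lay from 650 to 992 bp away, and these 5 were lost in the narrower promoter of 500 bp upstream and 100 bp downstream. By annotation, 20 of the summits, or 80.0%, were intergenic, near the 77.3% of all bound genes. Another 3 were intronic and 2 lay in non-coding genes.

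**Figure D3:**
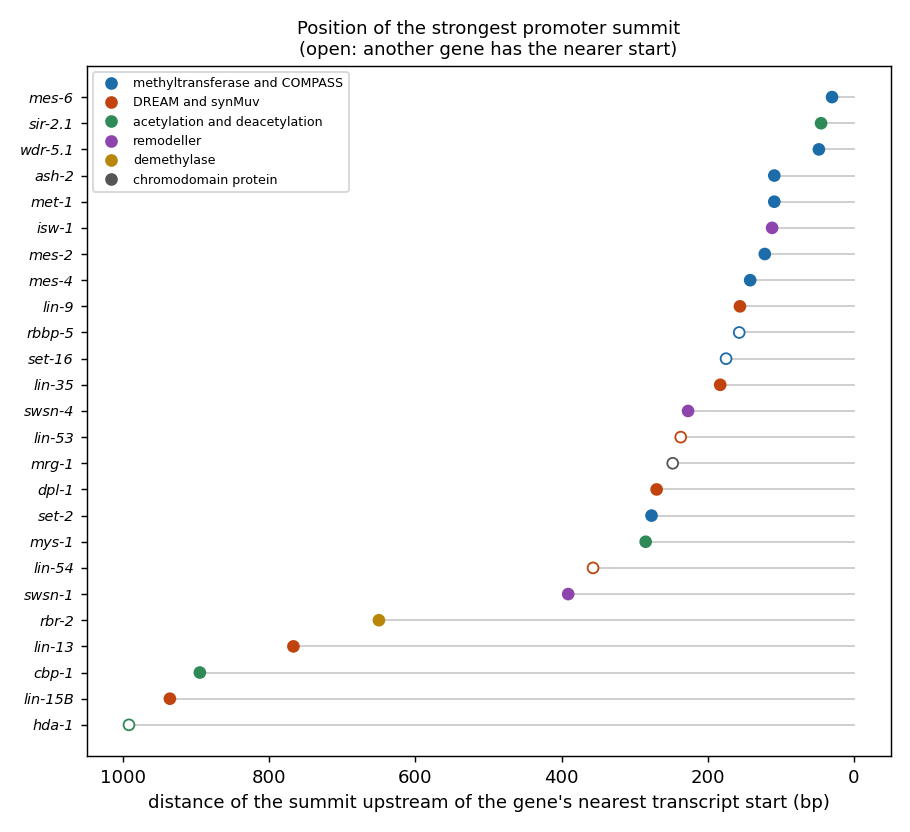
Distance of each bound member's strongest promoter summit upstream of its nearest own transcript start, in bp, coloured by class. Open circles mark the 6 members for which another gene has the nearer start, and most circles lie within 300 bp of the start.

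Unbound members were often downstream genes of a tight same-strand run. A gene was called operon-like when its upstream neighbour on the same strand ended within 300 bp, a rule of distance and not of known trans-splicing. Of the 18 unbound members 9 were operon-like, against 3 of the 25 bound. Over all genes, 2215 of 16708 unbound and 264 of 3265 bound genes were operon-like. The member list was itself richer in such genes, at 27.9% beside 12.4% of all protein-coding genes. Of the 31 members that were not operon-like, 22 were bound, or 71.0%, beside 17.2% of all such genes, and of the 12 that were, 3 were bound, or 25%, beside 10.6%.

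For 7 of the 9 unbound operon-like members, the first gene of the run was bound. This look-up was chosen after the unbound members were seen, and over all unbound operon-like genes the share was 35.3%. The strongest case was hpl-2, in a run that began with K01G5.10, whose promoter held a summit with a signal of 1083 and rank 17. For lin-37 the first gene was ZK418.5, with a signal of 512.5 and rank 136. For mys-4, mys-2, spr-5, hda-2 and lin-52 the first genes were C34B7.1, ndua-2, eif-3.J, swsn-7 and ZK632.9, with signals of 228, 112, 110.3, 78.2 and 48.2. The runs of met-2 and hda-3 began with lmbr-1 and fdps-1, which were not bound. Counting a gene's own promoter or that of the first gene of its run, 32 of 43 members, or 74.4%, were bound, beside 20.3% of all genes. The acetylation and deacetylation class then had 7 of 8 in place of 4, while the methyltransferase and COMPASS class stayed at 9 of 13.

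**Figure D4:**
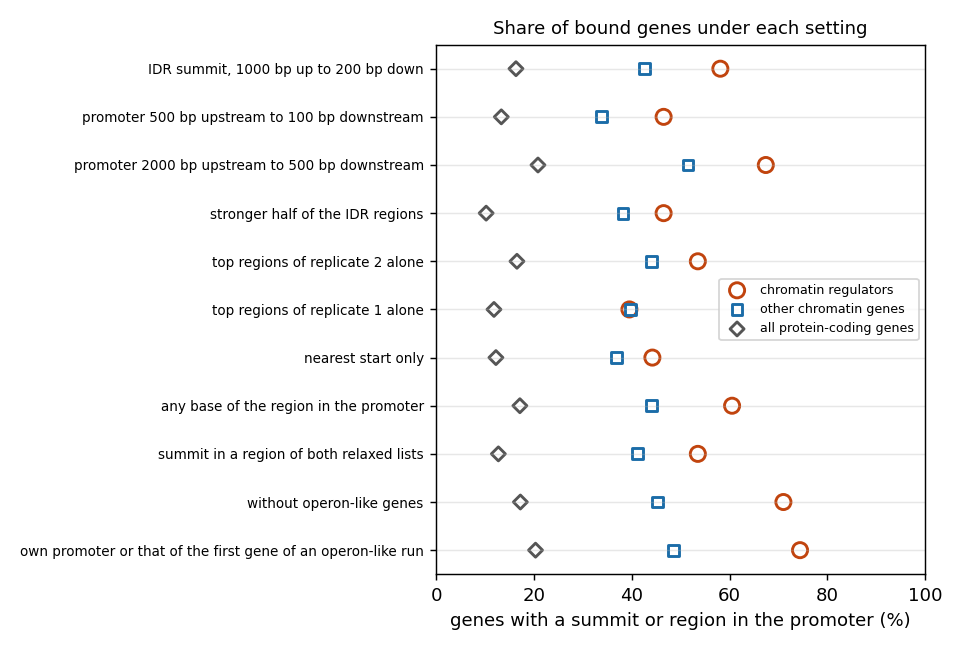
Share of bound genes, in percent, under each setting, for the 43 chromatin regulators (circles), the 68 other chromatin genes (squares) and all 19973 protein-coding genes (diamonds). The circles run from 39.5% with replicate 1 alone to 74.4% with first genes counted, and the diamonds from 10.2% to 20.8%.

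Other chromatin genes, 68 in all, were listed to set beside the members, and 29 of them, or 42.6%, were bound. Their strongest summits were at efl-1, the E2F-type partner of dpl-1 (signal 868, V 16965843), hat-1, an acetyltransferase gene (424, III 10407439), dot-1.1, a methyltransferase gene (359, I 2401658), and set-4, another methyltransferase gene (265, II 6331616). In replicate 1 alone these genes and the members had like shares, 39.7% and 39.5%. The median signal of the bound ones was 142.3, and 24 of 29 were within the top regions of replicate 1.

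The short sequences named above were counted at all 25 summits. ACGCGC was found in 7 of the 25 windows, or 28.0% (exact 95% interval 12.1 to 49.4), and in 16.2% of the 2545 IDR summits in promoters. GAGCGC was found in 6, or 24.0% (9.36 to 45.1), beside 15.6%. GAGAGA was found in as many, beside 19.7% of the promoter summits. ACGT was found in 5, or 20% (6.83 to 40.7), beside 24.8%. GACGCA was found in 4, or 16% (4.54 to 36.1), beside 15.0%. In these windows each interval contains the share over all promoter summits. In windows of 100 bp to either side, ACGCGC was found in 10 of 25, or 40% (21.1 to 61.3), beside 18.9%, a share outside the interval. Over the 5 sequences and all window sizes examined, this was the only such interval. At the bound other chromatin genes ACGCGC was in 6 of 29 windows of that size, or 20.7%. In windows of 25 bp ACGCGC was found in 2 members, or 8.0%, beside 9.86%. The order of the members and all promoter summits therefore depends on the window. The 7 windows with ACGCGC were those of set-16, lin-53, dpl-1, mys-1, sir-2.1, isw-1 and swsn-1. The median GC content of the windows was 48.5%, from 26.7% at wdr-5.1 to 60.4% at set-16 and cbp-1, beside 43.6% over all promoter summits.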

How the data were processed

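GMEB-1 binding was measured in 2 replicates of 1 group. Per the deposited readme, the authors called a relaxed list of regions for each replicate against a control, a list on both replicates together, and from these an optimal list of regions kept by irreproducible discovery rate (IDR). No aligner, caller or IDR threshold is named: these were not given in the sources used here. The depth is unknown for the same reason. The deposited signal is the caller's value for each region. The deposited −log10 q-value was 4.09 for each of the regions on the IDR list, and ranks within a list therefore follow the signal. Signal maxima differed between the replicates, 191.1 and 1996, so ranks were compared and not signals.

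The ce11 lists were set on the WBcel235 genome with genes from Ensembl release 115, and every region fell inside its chromosome. Of the 3909 IDR summits, 77.4% lay in a region of replicate 1 and 99.3% in one of replicate 2. The members and lists were chosen with earlier results of these data known, and the subgroups named within classes were formed after the values were seen. Bound members of highest signal in each class, members missing from a replicate and the first 4 other chromatin genes were named by a written rule. Of 70 other names 68 matched, and swsn-5 and swsn-8 are other names of listed genes. The nearest member to gmeb-1 was 6075.7 kb away and to unc-119 147.1 kb. No statistical test was run. Intervals are exact binomial and cover counting error only. Gene assignment was tested on simulated positions. Python 3.11.15, pandas 2.3.3 and scipy 1.17.1 were used.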

Additional observations from a re-analysis of the deposited data

How the results depend on the processing

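Under the narrower and the wider promoter, the 1954 strongest regions, the nearest start, any overlap of the region, both relaxed lists and the removal of operon-like genes, from 19 to 29 members were bound, and the share stayed above that of all genes in each. Leaving out a replicate gave 17 to 23 members, 5 to 8 methyltransferase and COMPASS genes, and 0 to 1 demethylase genes. In the narrower promoter, 2 acetylation and deacetylation genes and 0 demethylase genes were bound. With the first gene of a run counted, a setting added after seeing the data, these classes had 7 and 2. The 1954 strongest regions bound 2046 of all genes. In windows of 25 bp to either side, ACGCGC was at 8.0% of the 25 summits beside 9.86% of all promoter summits, GAGCGC at 8.0% beside 10.7%, and GAGAGA at 8.0% beside 10.9%. In windows of 100 bp the shares were 40% beside 18.9%, 28.0% beside 18.3% and 44.0% beside 31.1%. The cause of these shifts was not tested. No paired analysis was possible because there is 1 group. Unknown depth limits what can be said of unbound genes.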

Other observations

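Among the 25 bound members, 18 windows, or 72.0% (exact 95% interval 50.6 to 87.9), held the 4-mer GCGC, which is its own reverse complement, including the mes-2 window that held none of the 5 listed sequences. It was in 72.4% of the 29 windows of other bound chromatin genes and in 49.8% of the 2545 promoter summits. GCGC was chosen after the windows were seen, and the windows of members were richer in GC (median 48.5% against 43.6%), whose part in the share was not tested.

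Of the 18 unbound members, 10 had a promoter summit in the relaxed list of both replicates together, or 55.6%, beside 31.5% of all unbound genes. Their ranks there ran from 4249 for lin-52 and 5005 for mys-4 to 29326 for hda-2. The jmjd-3.1 and hpl-1 promoters, both on X, held no summit of any of the relaxed lists. Of the 5 members on X 1 was bound, beside 12.1% of all genes on X, and of the 38 on autosomes 24, or 63.2%, beside 17% of all autosomal genes.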
